A study of Mus musculus with 9 samples.

Results

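The small leucine-rich proteoglycans described here are 10 genes of 1 protein family, Dcn, Bgn, Aspn, Fmod, Lum, Kera, Prelp, Omd, Ogn and Podn, taken by name from the 54532 genes of a mouse muscle count table. All 10 passed the filter on low counts in each comparison. The RNA came from damaged muscle of C57/BL6J mice in 3 groups of 3 libraries. Young PBS mice (4 months) and old PBS mice (24 months) received phosphate-buffered saline as the control treatment, and old rMETRNL mice (24 months) received recombinant Meteorin-like, a secreted protein. The sources differ on the amount, with 0.1 µg per injection in one place and 0.1 ng per dose in another. Every group was injured by BaCl2, a salt that kills muscle fibres and starts regeneration, and was then treated into the muscle 3 times, so no uninjured muscle and no young rMETRNL muscle enters these comparisons. The sources differ on the material: the labels give a digested and strained cell suspension and the series design gives day 4 after injury, whereas the study's text gives whole-muscle RNA at day 8. They do not say which libraries came from separate mice, so p-values measure only the spread between these libraries.

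Small leucine-rich proteoglycans are secreted proteins whose leucine-rich repeats bind collagen, and many of them carry sugar chains of the chondroitin, dermatan or keratan sulfate kind. They set how thick collagen fibrils grow and how they are spaced, and several hold growth factors such as TGF-beta in the matrix. In muscle they are made mainly by fibroblast-like cells, fibro-adipogenic progenitors and tendon cells.

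The family sits in the genome in tandem groups. In the GRCm38 annotation, Dcn (chr10:97479609-97518143), Lum (chr10:97565128-97572703) and Kera (chr10:97606879-97613692) follow each other on the plus strand with 0 coding genes between them, and Epyc, a family gene of cartilage, comes next. Aspn (chr13:49544443-49567565), Omd (chr13:49582462-49592822) and Ogn (chr13:49608046-49624501) form a second run on the plus strand after Ecm2. Prelp (chr1:133910304-133921414, minus strand) and Fmod (chr1:134037254-134048277, plus strand) lie 115.8 kb apart. Bgn (chrX:73483602-73495933, plus strand) and Podn (chr4:108014791-108096445, minus strand) stand apart from other members. Aspn, Omd and Ogn lie inside the span of Cenpp on the other strand, and exons of Aspn overlap exons of Cenpp. Exons of Prelp overlap the antisense gene Gm15851. The library kit does not mark strand, so reads shared by these overlapping genes cannot be told apart.

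The chr13 neighbours are shown because consecutive genes lie within 15.2 kb of each other, while their transcripts differ widely in level. The 200 bases before each start in RefSeq (GRCm38.p6), all on the plus strand, were Aspn at chr13:49544243-49544442, Omd at chr13:49582262-49582461 and Ogn at chr13:49607815-49608014. Capitals mark TATAAA, the core of a TATA box, or CANNTG, an E-box, read on either strand.
Aspn: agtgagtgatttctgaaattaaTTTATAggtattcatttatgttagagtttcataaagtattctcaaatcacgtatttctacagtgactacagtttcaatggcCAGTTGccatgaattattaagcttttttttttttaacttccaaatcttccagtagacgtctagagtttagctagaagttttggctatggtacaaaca
Omd: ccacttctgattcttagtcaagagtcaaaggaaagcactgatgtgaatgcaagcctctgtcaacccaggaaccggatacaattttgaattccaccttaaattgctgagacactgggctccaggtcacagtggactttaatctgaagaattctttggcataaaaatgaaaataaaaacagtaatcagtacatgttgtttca
Ogn: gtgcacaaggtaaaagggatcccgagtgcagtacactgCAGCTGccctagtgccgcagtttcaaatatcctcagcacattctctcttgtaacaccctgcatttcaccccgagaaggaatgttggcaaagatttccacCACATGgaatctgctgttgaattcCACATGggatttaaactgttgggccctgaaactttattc

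The window of Aspn held 1 TATAAA and 1 CANNTG, that of Ogn held 3 CANNTG, and that of Omd held none of the 7 motifs searched. RefSeq's table gave 9 windows for 8 members, with no entry for Dcn or Lum. TATAAA was in 1 of these 9 windows and in 9.96% of 32851 promoter windows of the same length, and CANNTG was in 6 of 9 and in 58.2%. The CCAAT box (CCAAT) was in 2 windows, those of Kera and Prelp, against 29.3% of all. The GC box core (GGGCGG) was in 2, Bgn and Podn, against 31.0%, and the SMAD half-site (GTCTG) in 2, Fmod and Prelp, against 35.5%. The AP-1 site (TGANTCA), found in 5.48% of all windows, and the SMAD element (GTCTAGAC), found in 0.107%, were in 0 of 9. GTCTG does not lie within GTCTAGAC, and no motif hit in the printed windows overlapped another. These are matches of letters in a window, not binding sites.

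Library totals ran from 16238700 to 22522560 counts, and 3 counts, taken as the floor of detection, came to 0.133 to 0.185 CPM, the counts on a gene scaled to the library total. Levels are CPM scaled by TMM factors, which ranged from 0.827 to 1.16, with both ends in old PBS. Summed mature fibre transcripts ran from 67250.5 to 111103 CPM, so muscle RNA was abundant in every library. The old PBS libraries stood apart from the rest in 2 ways. Pairs of them differed more (chi-square per degree of freedom 51.2 to 169) than pairs within the other groups (10.9 to 45.4), and they carried transcripts of brain and liver: the 5 brain markers summed to 43.6 to 102 CPM in old PBS, 0.404 to 0.943 in young PBS and 0.0565 to 0.589 in old rMETRNL, with Mobp and Snap25 at 0 in every young PBS and old rMETRNL library. edgeR called Slc1a2 (adjusted p 0.00707), Gfap (0.0405) and Mobp (0.0422), all higher in old PBS than in young PBS, and called Slc1a2 (0.00416), Gfap (0.0163), Mobp (0.0202) and Snap25 (0.0338), all lower in old rMETRNL than in old PBS. The 5 liver markers summed to 5.41 to 78.3, 0.113 to 0.462 and 0.362 to 0.482 CPM, Apoa1 and Fgb were at 0 outside old PBS, and Apoa1 was called for the treatment (adjusted p 0.0338). Ptgds, a marker of meninges, was at 3.84, 20.1 and 20.2 CPM in old PBS and at 0.428 to 1.24 elsewhere. The 6 markers of meninges and perineurium, Ptgds among them, summed to 86.7 to 108 CPM in old PBS. Their sums were 78.3 to 89.0 CPM in young PBS and 79.8 to 96.7 in old rMETRNL, so the groups overlapped. In old PBS 5 of the 6 were higher and 1 was lower than in young PBS. With rMETRNL 2 were higher and 4 lower, and edgeR called 0 in either comparison. Young PBS 2 also stood apart, by skin transcripts: the 5 keratinocyte markers summed to 100.4 CPM there and to 2.22 to 5.60 in the other 8 libraries, with Krt10 at 46.5 CPM, Krt5 at 10.4 and 0 in the other 8, and Krt14 at 7.54. The brain and liver sums were higher in all 3 old PBS libraries than in any other library. In comparisons with old PBS this RNA cannot be told apart from age or treatment. The part of the RNA of other tissues in the results that follow was not tested.

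Together the 10 members took 0.147% to 0.252% of all counts. Per kilobase of annotated exon, Dcn, Lum and Bgn were the most abundant members and Omd the least abundant in every group. Among 14168 genes at 1 CPM or more, Dcn ranked 260 per kilobase, Lum 352, Bgn 494, Aspn 605 and Ogn 717. Fmod ranked 1690, Prelp 2873, Podn 5747, Kera 5933 and Omd 11783. In young PBS the means per kilobase were 123 for Dcn, 107 for Lum, 79.5 for Bgn, 69.6 for Aspn and 54.7 for Ogn, and the libraries of each neighbouring pair in that order overlapped. Fmod followed at 29.2, below every Ogn library, then Prelp at 11.2, Kera at 8.23, Podn at 5.34 and Omd at 1.02. In old PBS the order differed in 2 places: Ogn (46.5) came before Aspn (41.3), with overlapping libraries, and Podn (5.66) came before Kera (1.88), with none overlapping. In old rMETRNL, Aspn (67.1) was again above Ogn (52.0) in every library, and Kera (5.71) and Podn (5.60) overlapped. Annotated exon length counts every known isoform, which lowers the value of genes with long rare ends.

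**Figure D1:**
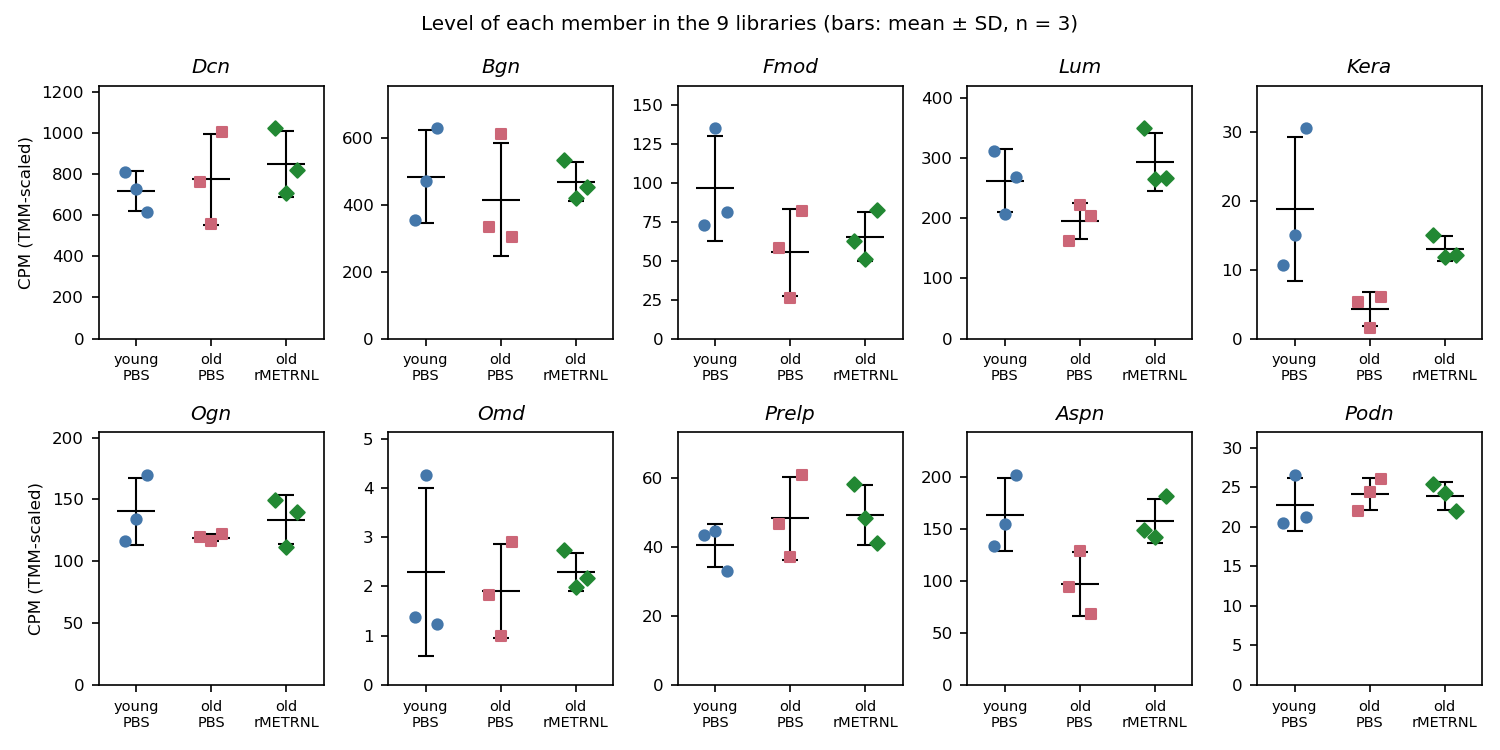
Levels of the 10 members in CPM (linear axis from 0) in young PBS (circles), old PBS (squares) and old rMETRNL (diamonds), with mean and SD of 3 libraries. Kera and Aspn sit lower in all 3 old PBS libraries than in any library of the other groups, and Podn lies between 20.5 and 26.6 CPM throughout.

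Kera, Aspn and Lum were the members whose libraries separated by group, all with the lower values in old PBS. No member passed the adjusted threshold in the edgeR quasi-likelihood test. Old PBS and young PBS differed in age and in the brain and liver RNA described above. Between these ages 0 of 10 members passed an edgeR adjusted p of 0.05, against 0.0643% of the genes tested. At an unadjusted p under 0.05 there were 2 of 10, Kera and Aspn, both lower in old PBS, against 5.91%, and these same 2 had all old PBS libraries below all young PBS libraries, against 5.25% of genes. DESeq2 called 1 of 10, Kera, against 1.41%. Old rMETRNL and old PBS differed in treatment and in that same RNA. For this treatment comparison edgeR called 0 of 10, against 0.108%. At an unadjusted p under 0.05 there were 3 of 10, Kera, Aspn and Lum, all higher in old rMETRNL, against 8.07%, and the same 3 did not overlap, against 6.99%. DESeq2 again called 1 of 10, Kera, against 1.84%. Between old rMETRNL and young PBS edgeR called 0 of 10, against 0% of genes, and DESeq2 called 0 of 10, against 0%. There, 1 of 10, Fmod, was under an unadjusted p of 0.05, against 2.41%, and 0 of 10 members had groups that did not overlap, against 3.94% of genes higher and 2.96% lower. The old PBS libraries enter both comparisons in which members separated, so those results share their controls and are not independent. Without old PBS 3, edgeR called 0 of 10 members between the ages and 2 of 10, Kera and Aspn, for the treatment. The calls over all genes went from 10 to 401 of 15884 tested and from 17 to 1560 of 15981. Counts for the gene lists below stand beside these when old PBS 3 is left out. With all libraries, their counts at an unadjusted p stand beside 5.91% and 8.07%. Without young PBS 2, 0 of 10 were called between the ages and in old rMETRNL against young PBS.

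The median log2 fold change of the 10 members was -0.26 in old PBS against young PBS, 0.21 in old rMETRNL against old PBS and -0.026 in old rMETRNL against young PBS. Over all genes tested the medians were 0.014, -0.0056 and 0.00089. In old PBS, 7 members were lower and 3 were higher than in young PBS, and in old rMETRNL 9 were higher and 1 was lower than in old PBS. The treatment tally and median rested on single libraries: without old PBS 3 there were 5 higher and 5 lower, with a median of 0.068, without old rMETRNL 1 there were 7 and 3, with 0.10, and without old PBS 4 there were 9 and 1, with 0.41. Library totals without TMM factors gave 10 higher and a median of 0.35, where the median of all genes was 0.093.

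**Figure D2:**
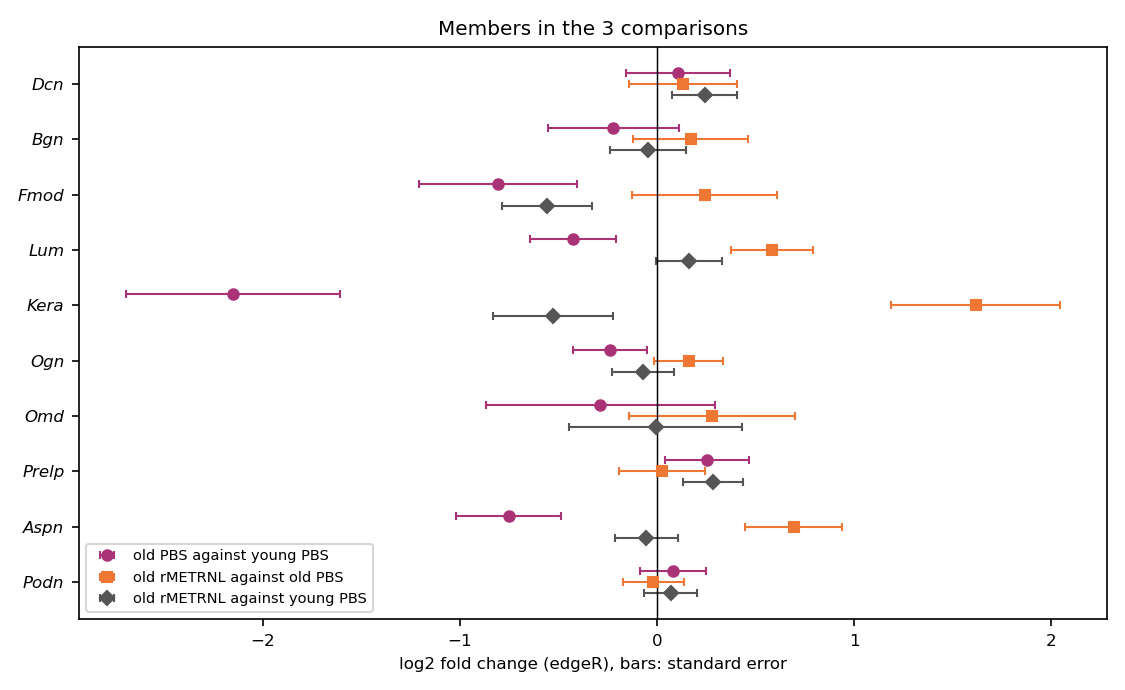
Log2 fold change of each member by edgeR in the 3 comparisons (circles, old PBS against young PBS; squares, old rMETRNL against old PBS; diamonds, old rMETRNL against young PBS), with bars for the standard error. Kera is farthest from 0, at -2.15 and 1.62 in the comparisons with old PBS.

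Decorin (Dcn), biglycan (Bgn) and asporin (Aspn) form class I of the family. Dcn, the best known binder of collagen and TGF-beta in muscle, was at 811, 726 and 617 CPM in young PBS, at 762, 557 and 1002 in old PBS and at 1023, 707 and 819 in old rMETRNL. These groups overlapped in each comparison, and the widest gap within a group, in old PBS, was 1.80-fold. The log2 fold changes were 0.11 (SE 0.26), 0.13 (SE 0.28) and 0.24 (SE 0.16) in the order of comparisons above, with unadjusted edgeR p of 0.700, 0.644 and 0.168. Bgn, the closest relative of Dcn and a signal for innate immune receptors when released, was at 354, 471 and 631 CPM in young PBS, at 334, 612 and 303 in old PBS and at 535, 423 and 454 in old rMETRNL. Old PBS held the lowest Bgn library and also 1 near the top, and no groups separated. The Bgn log2 fold change of -0.22 (SE 0.33) in old PBS against young PBS was within that spread.

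Dcn and Bgn changed places within groups. Bgn counts per Dcn count were 0.436, 0.648 and 1.02 in young PBS, 0.438, 1.10 and 0.303 in old PBS, and 0.523, 0.597 and 0.554 in old rMETRNL. Young PBS 3 and old PBS 3 were the libraries with more Bgn than Dcn reads, while the old rMETRNL libraries were close together. On the length-scaled pool of the 10 members, the share of Dcn ran from 20.2% in young PBS 3 to 39.7% in old PBS 4, and that of Bgn from 11.5% in old PBS 4 to 24.4% in old PBS 3.

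**Figure D3:**
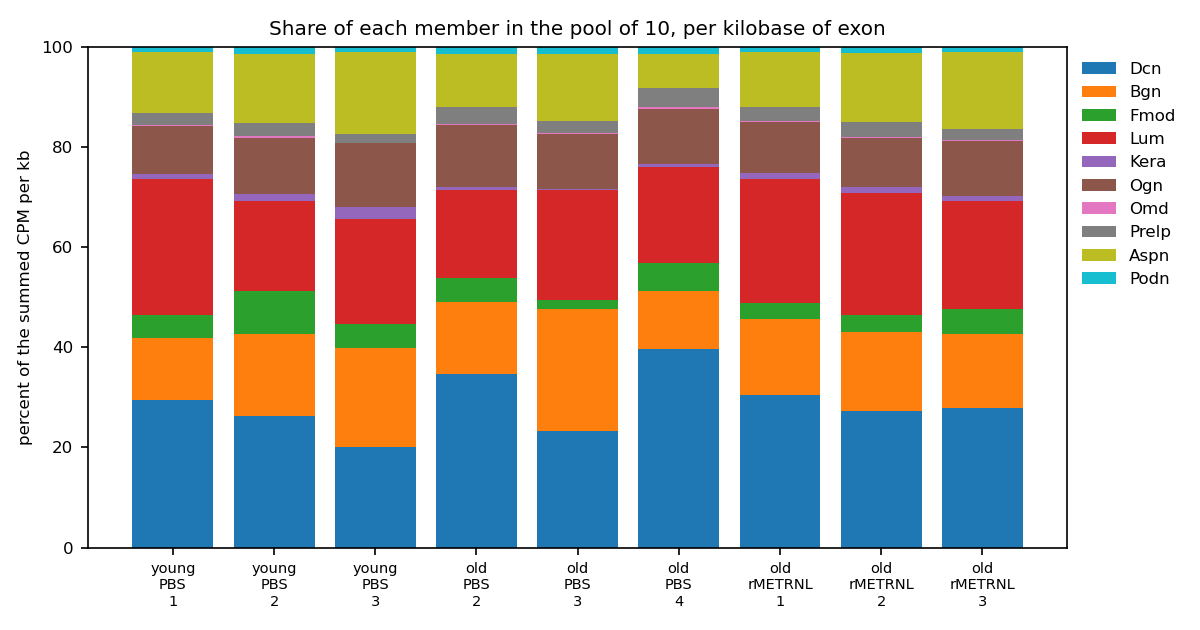
Share of each member in the summed CPM per kilobase of exon of the 10 members, one stacked bar to 100% for each library. Dcn takes 20.2% to 39.7% and old PBS 4 holds the most Dcn and the least Bgn and Aspn.

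Aspn, a class I member with a run of aspartates that binds collagen and calcium, was at 134, 155 and 203 CPM in young PBS, at 94.5, 129 and 68.2 in old PBS and at 149, 142 and 182 in old rMETRNL. All 3 old PBS libraries were below the other 6, with old PBS 3 (129) next to young PBS 1 (134). The mean was 97.3 ± 30.6 CPM (SD, n = 3) in old PBS, 164 ± 35.1 in young PBS and 158 ± 21.5 in old rMETRNL. The log2 fold change was -0.75 (SE 0.27) in old PBS against young PBS, with an edgeR adjusted p of 0.695. It was 0.69 (SE 0.25) in old rMETRNL against old PBS, with an adjusted p of 0.491, and -0.053 (SE 0.16) against young PBS. Without old PBS 3 the treatment value was 0.96, with an edgeR adjusted p of 0.0197, so that library decides the call. Over all genes 1560 of 15981 were called in that fit, against 17 of 15682 with all libraries. Over every library left out in turn, the Aspn value ran from 0.48 to 0.96 for the treatment. Between the ages it ran from -1.02 to -0.55. Exon overlap with Cenpp means that some of the Aspn reads may belong to the other strand.

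Lumican (Lum), keratocan (Kera), fibromodulin (Fmod), PRELP (Prelp) and osteomodulin (Omd) form class II, whose proteins are the main carriers of keratan sulfate chains. Kera is known from cornea and is also made in tendon. Its level was 10.6, 15.1 and 30.6 CPM in young PBS (184, 272 and 542 counts), 5.25, 1.53 and 6.10 in old PBS (78, 35 and 97 counts), and 15.1, 11.8 and 12.2 in old rMETRNL (282, 209 and 269 counts). The old PBS libraries were the 3 lowest of the 9, and old PBS 3 was well under the other 2. The mean was 18.8 ± 10.5 CPM (SD, n = 3) in young PBS, 4.29 ± 2.43 in old PBS and 13.0 ± 1.80 in old rMETRNL. The log2 fold change was -2.15 (SE 0.54) in old PBS against young PBS, with an adjusted p of 0.304 by edgeR and of 0.00224 by DESeq2. It was 1.62 (SE 0.43) in old rMETRNL against old PBS, with an adjusted p of 0.289 by edgeR and of 0.0155 by DESeq2, and -0.53 (SE 0.31) against young PBS. Kera stands in the gene table that the study drew from these libraries for the treatment comparison, so its difference there is not independent evidence.

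The size of the Kera difference depended on single libraries. Old rMETRNL against old PBS gave 1.20 without old PBS 3, with an edgeR adjusted p of 0.0123, and 1.97 without old PBS 4. With young PBS 3, the highest library, left out, old PBS against young PBS gave -1.60, and old rMETRNL against young PBS went from -0.53 to 0.018. Over every library left out in turn, the direction in the 2 comparisons with old PBS did not change, from -2.51 to -1.60 and from 1.20 to 1.97.

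Lum, which keeps fibrils thin and evenly spaced, was at 313, 208 and 268 CPM in young PBS, at 163, 221 and 203 in old PBS and at 350, 265 and 267 in old rMETRNL. All 3 old rMETRNL libraries were above all 3 old PBS libraries, while young PBS 2 (208) lay inside the old PBS range. The log2 fold change was 0.58 (SE 0.21) for old rMETRNL against old PBS, with an edgeR adjusted p of 0.499, and -0.43 (SE 0.22) for old PBS against young PBS, with an adjusted p of 0.940. Kera counts per Lum count, which do not depend on library scaling, were 0.0340, 0.0727 and 0.114 in young PBS, 0.0322, 0.00690 and 0.0300 in old PBS, and 0.0431, 0.0446 and 0.0455 in old rMETRNL. The 3 old PBS ratios were the lowest of the 9, with a mean log2 difference of -1.80 from young PBS. Old PBS 3 carried much of it, and without that library the difference was -1.07 from young PBS, and 0.51 in place of 1.24 in old rMETRNL against old PBS.

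Fmod, which directs early fibril assembly, was at 73.0, 135 and 81.4 CPM in young PBS, at 58.2, 25.9 and 82.0 in old PBS and at 62.6, 51.2 and 82.8 in old rMETRNL. The groups overlapped, with young PBS 2, the library with skin transcripts, highest and old PBS 3 lowest. The log2 fold change was -0.81 (SE 0.40) in old PBS against young PBS, with an edgeR adjusted p of 0.923, and 0.24 (SE 0.37) in old rMETRNL against old PBS. Old rMETRNL against young PBS gave -0.56 (SE 0.23), with an unadjusted p of 0.0326 and an adjusted p of 1.0. Without young PBS 2 that value was -0.24 and the value between the ages -0.49, so the library with skin transcripts carried much of both. Their part in the Fmod level was not tested. Without old PBS 3 the treatment value turned to -0.098, and the value between the ages was -0.47.

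Prelp, which ties basement membranes to collagen, was at 43.4, 44.7 and 33.2 CPM in young PBS, at 46.6, 37.2 and 60.9 in old PBS and at 58.2, 48.3 and 41.2 in old rMETRNL. Its groups overlapped in every comparison, and its log2 fold changes were 0.25 (SE 0.21), 0.027 (SE 0.22) and 0.28 (SE 0.15). Omd, a keratan sulfate proteoglycan of bone, was near the bottom of the range, at 1.39, 4.27 and 1.24 CPM in young PBS, at 1.82, 1.0 and 2.89 in old PBS and at 2.73, 1.98 and 2.17 in old rMETRNL. Young PBS 2 was 3.44-fold above the lowest library of its group, more than any difference between the group means, and it was the library with skin transcripts. The Omd log2 fold changes were -0.29 (SE 0.58), 0.28 (SE 0.42) and -0.0074 (SE 0.44). Without young PBS 2 the first and the last were 0.52 and 0.80, the last with an unadjusted p of 0.0470 and an adjusted p of 1.0. Omd had 22 to 77 counts a library. The 8 markers of cartilage and bone summed to 3.64 to 10.9 CPM over the 9 libraries.

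Osteoglycin (Ogn), a class III member found in many connective tissues, was at 116, 135 and 170 CPM in young PBS, at 120, 116 and 122 in old PBS and at 149, 111 and 140 in old rMETRNL. The old PBS libraries were within 1.05-fold of each other and lay inside the range of old rMETRNL. The log2 fold changes were -0.24 (SE 0.19), 0.16 (SE 0.17) and -0.072 (SE 0.16). Aspn counts per Ogn count were 1.15, 1.15 and 1.19 in young PBS, 0.790, 1.11 and 0.560 in old PBS and 0.999, 1.28 and 1.30 in old rMETRNL. Podocan (Podn), a class V member known from kidney and vessel wall, was the steadiest, at 20.5, 26.6 and 21.3 CPM in young PBS, at 22.0, 24.4 and 26.1 in old PBS and at 25.5, 24.3 and 22.0 in old rMETRNL. Its log2 fold changes were 0.082 (SE 0.17), -0.018 (SE 0.15) and 0.069 (SE 0.13).

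The members did not vary as a block. Over the 9 libraries, after the mean of each gene was taken off, the closest pair was Dcn and Prelp, with a root mean square difference of 0.14 log2 CPM, then Prelp and Podn at 0.22 and Ogn and Podn at 0.24. Kera varied most about its own mean, by 1.13 log2 units, followed by Fmod at 0.61, Omd at 0.59 and Aspn at 0.45, and Podn least, at 0.13. Among 14170 genes at 1 CPM or more, the genes most like Kera were Zfp185 (0.48) and Tnmd (0.50), the second a tendon gene. The genes most like Aspn were Cdca3 (0.13) and Smc4 (0.14), genes of cell division, and those most like Lum were Egfl7 (0.088), an endothelial gene, and Itm2a (0.096). Dcn was most like Mrpl21 (0.093) and Rpl35 (0.094), ribosomal protein genes, and Bgn most like Ocel1 (0.11) and Lrrk1 (0.11). Fmod was most like Igsf1 (0.30) and Kcna7 (0.30), Omd like Dok5 (0.28) and Ppl (0.31), and Prelp like Wbp1 (0.11) and Ntn1 (0.12). Ogn was most like Plxdc2 (0.10) and Rfxank (0.11), and Podn like Fbrsl1 (0.071) and Ndrg1 (0.073). Members that vary little have near neighbours by construction, and the libraries share their scaling.

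**Figure D4:**
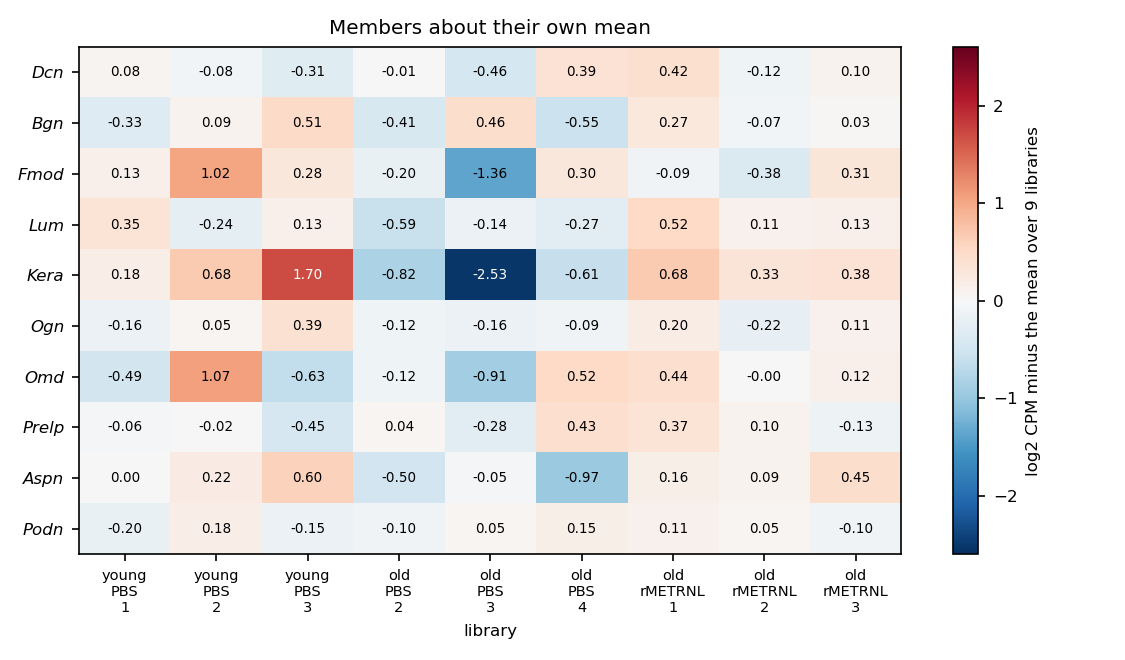
Log2 CPM of each member minus its own mean over the 9 libraries, by library (colour and printed value). Kera spans from -2.53 in old PBS 3 to 1.70 in young PBS 3, and the row of Podn stays between -0.20 and 0.18.

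Summed tendon markers were also lowest in old PBS. The 6 markers summed to 232 to 534 CPM in young PBS, 166 to 211 in old PBS and 290 to 331 in old rMETRNL, with none at 0 in a whole group. In old PBS, 5 of 6 were below young PBS, 4 of them at an unadjusted p under 0.05, and 0 were called by edgeR. Tnmd, a tendon membrane protein, was at 22.1, 39.9 and 84.3 CPM in young PBS, at 13.1, 10.2 and 15.8 in old PBS and at 27.7, 24.8 and 24.1 in old rMETRNL. Its log2 fold changes were -1.91 (SE 0.44) and 0.97 (SE 0.20), and the first was -1.25 without young PBS 3. Cilp2, a matrix protein, gave -1.74 (SE 0.42) between the ages, and Thbs4, a tendon thrombospondin, 0.82 (SE 0.21) for the treatment. Scx, the tendon transcription factor, was the exception between the ages, at 0.29 (SE 0.31) on the log2 scale, and turned to -0.050 without old PBS 3. With rMETRNL, 5 of the 6 were higher, 3 of them at an unadjusted p under 0.05, and 0 were called. Scx was the 1 that was lower, also under 0.05, from a mean of 13.2 CPM in old PBS to 8.33 in old rMETRNL. Kera counts per Tnmd count were 0.480, 0.378 and 0.362 in young PBS, 0.400, 0.150 and 0.385 in old PBS and 0.544, 0.476 and 0.506 in old rMETRNL, so 2 of 3 old PBS libraries had ratios like young PBS. The amount of tendon or fascia taken with each muscle was not tested, and fewer cells of a type cannot be told apart from less RNA per cell.

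Markers of fibro-adipogenic progenitors overlapped between groups in their sum, 777 to 943 CPM in young PBS, 709 to 954 in old PBS and 909 to 1259 in old rMETRNL. Of these 10 markers, 4 were higher and 6 lower between the ages, with old PBS set against young PBS, 1 each way at an unadjusted p under 0.05, and 0 were called. Those were Lamc3, a laminin chain, at 1.14 (SE 0.43), and Cd248, a stromal membrane protein, at -0.40 (SE 0.14). In the treatment comparison 8 were higher and 2 lower with rMETRNL, 5 and 1 of them at an unadjusted p under 0.05, and 0 were called. Lamc3 gave -2.42 (SE 0.52) there and Mfap5, a microfibril protein, 0.70 (SE 0.18). Pdgfra, their defining receptor, was at 78.8, 82.4 and 94.2 CPM in young PBS, at 77.6, 77.3 and 66.8 in old PBS and at 116, 95.1 and 84.5 in old rMETRNL. The Pdgfra log2 fold changes were -0.21 (SE 0.16) and 0.41 (SE 0.18). Their part in the values of Lum and Aspn was not tested.

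Most markers of macrophages and of blood lay on 1 side in each comparison with old PBS, with 0 called when all libraries were in the fit. All 7 macrophage markers were lower in old PBS and all 7 higher with rMETRNL, 2 in each comparison at an unadjusted p under 0.05 and 0 called, with sums of 1746 to 2022 CPM in young PBS, 1242 to 1808 in old PBS and 1872 to 2176 in old rMETRNL. These 2 were Cd68, a lysosomal protein, at -0.60 (SE 0.22) and 0.57 (SE 0.19), and Mrc1, the mannose receptor, at -0.48 (SE 0.21) and 0.63 (SE 0.24). All 7 were under an unadjusted p of 0.05 in both comparisons when old PBS 3 was left out, and 1 and 2 were called. Over all genes, 3322 of 15884 and 4410 of 15981 were then under 0.05, and 401 and 1560 were called. All 5 markers of red blood cells were higher in old PBS, 4 at an unadjusted p under 0.05 and 0 called. With rMETRNL 4 were lower, 0 under 0.05. Their sums overlapped, at 51.7 to 191 CPM in young PBS, 128 to 981 in old PBS and 61.2 to 843 in old rMETRNL. Hba-a1, a globin, gave 2.40 (SE 0.83) between the ages. Of 5 endothelial markers, 4 were lower in old PBS and 4 higher with rMETRNL, with 0 and 1 under 0.05. No marker of mural cells, adipocytes, new fibres or mature fibres was under 0.05 in these comparisons. Of the 6 genes of tissue handling, 3 were higher and 3 lower between the ages, and 2 higher and 4 lower for the treatment. In each comparison 1 of them was under 0.05 and 0 were called. Jun, 1 of these 6, gave 0.53 (SE 0.18) and -0.43 (SE 0.18). The part of these cell types in the members' values was not tested.

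The collagens that these proteoglycans bind had a larger median difference than the members. Of 13 genes of fibrillar, fibril-associated and type VI collagen, 13 were lower in the old PBS libraries than in the young ones (median -1.01 on the log2 scale), and 11 had an unadjusted p under 0.05, yet 0 passed the adjusted threshold. With rMETRNL, 12 of 12 tested were higher, with a median of 0.94, 11 of them at an unadjusted p under 0.05 and 0 past the adjusted threshold. Col11a1, which nucleates fibrils, had a log2 fold change of -2.76 (SE 0.75) in old PBS against young PBS, and Col12a1, a fibril-associated collagen of tendon and fascia, -2.64 (SE 0.73). Col11a1 was at 8.89, 32.3 and 96.5 CPM in young PBS, at 8.55, 7.99 and 3.84 in old PBS and at 12.5, 13.9 and 13.3 in old rMETRNL. Col12a1 was at 41.4, 171 and 390 CPM in young PBS, at 34.7, 46.7 and 15.2 in old PBS and at 50.4, 90.0 and 86.4 in old rMETRNL. Young PBS 3 was far above the rest for both, and without it the values between the ages were -1.60 and -1.72, while 12 of the 13 collagens were lower and 3 had an unadjusted p under 0.05. Without old PBS 3, edgeR called 3 of 13 between the ages, all lower, and 12 of 12 for the treatment, all higher, with a median of 1.33. The 13 genes summed to 13247 to 20577 CPM in young PBS, 4338 to 10926 in old PBS and 11925.5 to 19492 in old rMETRNL, with no overlap between old PBS and the other groups.

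The ratio of Bgn to 1 collagen chain, Col1a1, separated old PBS from both other groups, though Bgn alone did not. The Bgn log2 fold changes were -0.22 (SE 0.33) between the ages and 0.17 (SE 0.29) for the treatment. Col1a1, the denominator, had means of 3012 CPM (SD 1007) in young PBS, 1323 (SD 732) in old PBS and 2638 (SD 689) in old rMETRNL. A gene with a level mean would therefore also tend to be higher in old PBS when divided by Col1a1. The share of all genes that separate when divided by Col1a1 was not computed. Bgn counts per Col1a1 count were 0.162, 0.173 and 0.153 in young PBS, 0.280, 0.290 and 0.457 in old PBS and 0.159, 0.165 and 0.228 in old rMETRNL. All 3 old PBS libraries were above the other 6, with a mean log2 difference of 1.04 from young PBS, and old rMETRNL differed by -0.88 from old PBS. Dcn counts per Col1a1 count were 0.372, 0.267 and 0.149 in young PBS, 0.638, 0.264 and 1.51 in old PBS and 0.304, 0.276 and 0.412 in old rMETRNL, with overlapping groups. Lum per Col1a1 was 0.143, 0.0762 and 0.0649, then 0.136, 0.105 and 0.306, then 0.104, 0.103 and 0.134, also overlapping. The 7 ratios were chosen after values were seen and gave 21 exact two-sided permutation tests. The smallest p was 0.1, which is the smallest that 3 against 3 libraries allow, and the smallest adjusted p was 0.35.

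**Figure D5:**
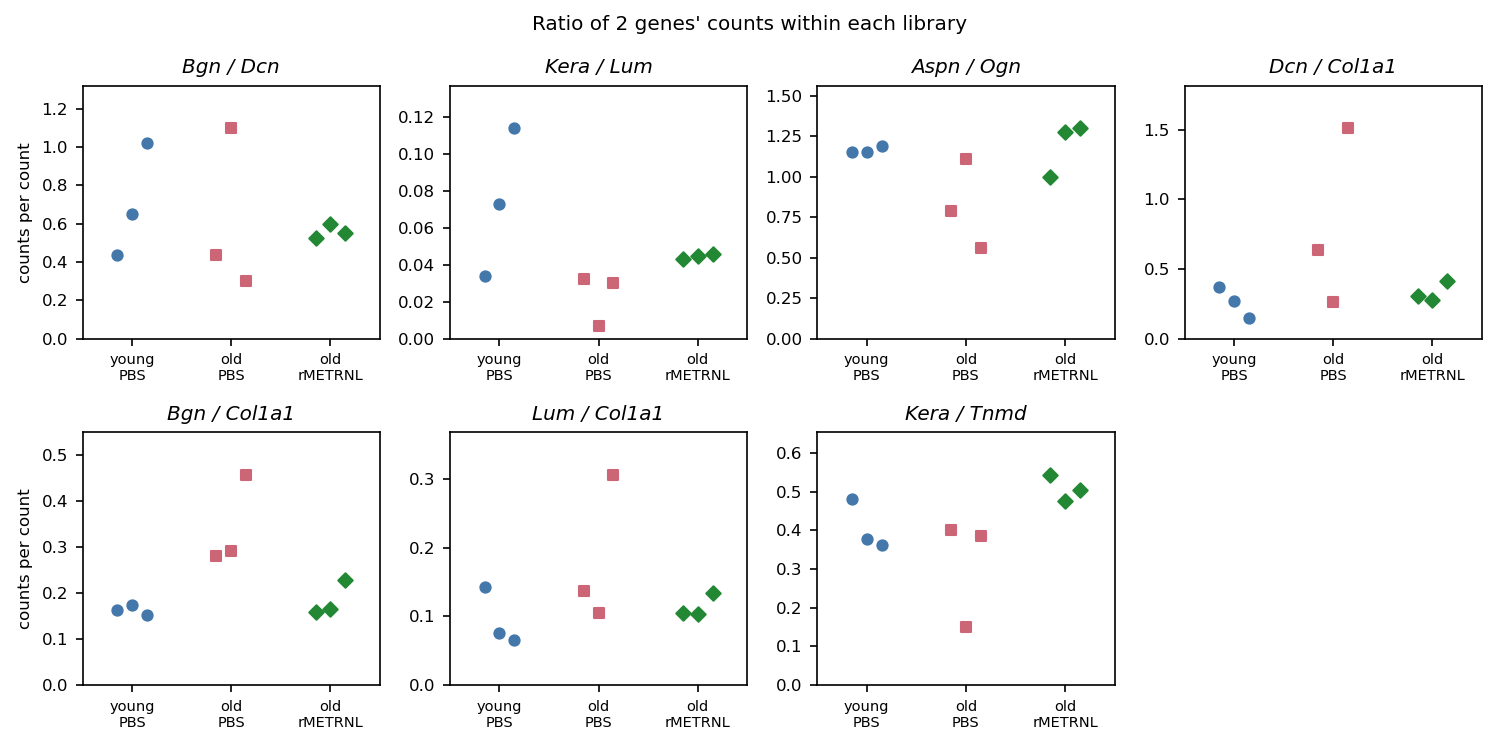
Counts of a first gene per count of a second gene within each library (linear axes from 0) for 7 pairs in young PBS (circles), old PBS (squares) and old rMETRNL (diamonds). Bgn per Col1a1 is 0.280 to 0.457 in old PBS and 0.153 to 0.228 in the other 6 libraries, and Kera per Lum is at most 0.0322 in old PBS.

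Of 7 other family genes, 4 were abundant enough to test. All 4 were lower in old PBS, 3 were higher with rMETRNL, and 0 were called by edgeR in either comparison, with 1 in each at an unadjusted p under 0.05. Ecm2, next to Aspn on chromosome 13, was at 41.3, 43.4 and 44.9 CPM in young PBS, at 32.6, 34.8 and 30.4 in old PBS and at 48.4, 43.9 and 48.4 in old rMETRNL. Its 3 old PBS libraries were the lowest, with log2 fold changes of -0.41 (SE 0.14) and 0.52 (SE 0.14) and edgeR adjusted p of 0.670 and 0.321, the second 0.0431 without old PBS 3. Chad, a cell-binding member of cartilage, gave -1.52 (SE 0.69) in old PBS against young PBS, from 5.54, 15.4 and 2.26 to 3.36, 1.09 and 3.77 CPM, and these overlapped. Without young PBS 2, again its highest library, Chad gave -0.53. Epyc, the neighbour of Kera, was at 0 to 0.375 CPM in every library.

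No gene that builds the sugar chains passed the adjusted threshold with all libraries in the fit. Without old PBS 3, 2 of 15 chondroitin and dermatan sulfate genes were called for the treatment, both higher, beside 1560 of 15981 genes tested. Of 6 genes for the linker that joins a chain to the core protein, 3 were higher and 3 lower in old PBS, with 0 at an unadjusted p under 0.05. The lowest p there belonged to B3galt6, a linker galactosyltransferase, at -0.48 (SE 0.29), and Xylt2, a xylosyltransferase that starts the chain, at -0.24 (SE 0.21). Of 15 genes tested for chondroitin and dermatan sulfate, 12 were lower in old PBS and 14 were higher with rMETRNL, with 2 and 1 at an unadjusted p under 0.05 and 0 called. Chsy3, a chondroitin synthase, was at 1.39, 1.77 and 2.26 CPM in young PBS, at 0.471, 0.699 and 0 in old PBS and at 1.23, 0.848 and 0.950 in old rMETRNL. Chpf, a chondroitin polymerizing factor, had a log2 fold change of 0.60 (SE 0.25) in old rMETRNL against old PBS. Of the genes for keratan sulfate, 2 of 5 tested were lower in old PBS, and 5 of 6 were higher with rMETRNL. Only B3gnt7, at 0 to 1.01 CPM, was under an unadjusted p of 0.05, in the treatment comparison.

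Proteases and their partners that trim the family or its collagens were mostly lower in old PBS. Of 10 tested, 8 were lower in old PBS and 9 were higher with rMETRNL, with 2 and 3 at an unadjusted p under 0.05 and 0 called. Bmp1, the protease that removes the propeptide of Bgn and of procollagens, was at 109, 112 and 124 CPM in young PBS, at 63.2, 101 and 63.7 in old PBS and at 166, 126 and 112 in old rMETRNL. Its log2 fold changes were -0.60 (SE 0.22) and 0.82 (SE 0.25), with adjusted p of 0.715 and 0.384, and the old PBS libraries were the lowest 3. Leaving out old PBS 3, edgeR called 1 of 10 genes of this list between the ages and 2 of 10 for the treatment. Over all genes it then called 401 of 15884 and 1560 of 15981. The adjusted p for Bmp1 in those fits was 0.0312 and 0.0124. Pcolce, which enhances that cleavage, gave -0.54 (SE 0.20) and 0.74 (SE 0.27).

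None of the receptor or bound growth factor genes passed the adjusted threshold with all libraries in the fit. Without old PBS 3 edgeR called 1 of 10 receptor genes and 3 of 7 growth factor genes for the treatment. Over all genes it then called 1560 of 15981. Of 9 receptor genes tested, 8 were lower in old PBS and 7 higher with rMETRNL, with 1 and 2 at an unadjusted p under 0.05 and 0 called. Itga2, a collagen-binding integrin subunit, gave 0.81 (SE 0.29) and Kdr, an endothelial growth factor receptor, 0.53 (SE 0.23) in old rMETRNL against old PBS. Of 7 growth factor genes, 5 were higher and 2 lower in old PBS. Mstn, the muscle growth inhibitor myostatin, was at 22.3, 37.3 and 13.3 CPM in young PBS, at 53.3, 17.4 and 47.8 in old PBS and at 13.3, 13.3 and 26.6 in old rMETRNL, with -1.15 (SE 0.42) for the treatment and an adjusted p of 0.514. Tgfb1 gave -0.40 (SE 0.21) in old PBS and 0.38 (SE 0.22) with treatment.

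Of 15 other proteoglycan genes, 10 of 15 tested were lower in old PBS and 9 of 14 were higher with rMETRNL, with 0 called and 4 in each comparison at an unadjusted p under 0.05. With old PBS 3 left out, 3 of 15 were called between the ages and 6 of 14 for the treatment. Over all genes the calls were 401 of 15884 and 1560 of 15981. Vcan, the large proteoglycan of provisional matrix, was at 55.2, 53.5 and 66.8 CPM in young PBS, at 37.3, 48.8 and 16.7 in old PBS and at 68.6, 70.7 and 54.0 in old rMETRNL. Ncan and Bcan, which are made in brain, went the other way: Ncan was at 1.28, 0.786 and 1.19 CPM in old PBS and at 0 in every young PBS library, and Bcan gave 2.45 (SE 0.45) in old PBS against young PBS. They moved with the brain markers described above, and their source was not tested.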

How the data were processed

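RNA from injured muscle was sequenced paired-end from NEBNext Ultra libraries. The authors deposited raw counts per Ensembl gene, replicates kept apart and not normalized. The submitters' processing notes name STAR, featureCounts and mm9, and the strand setting is not given in the sources used here. Names, exon lengths and coordinates came from a GENCODE annotation of GRCm38, to which 54495 of 54532 identifiers matched. Groups were compared in pairs on 6 libraries with edgeR 4.0.16 in R 4.3.3 (filterByExpr, TMM, glmQLFit, glmQLFTest, Benjamini-Hochberg, threshold 0.05). Standard errors were derived from the F statistic. Levels are CPM with TMM factors of all 9 libraries, and log2 levels used a prior count of 2. DESeq2 1.42.0 was run as an alternative. The comparison was tested on simulated data.

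The members and lists were chosen with earlier results of these data known. The genes named are the 10 members, the 2 genes most like each member, and from each list the called genes or up to 2 with the lowest p-value. Genes named beyond that rule (Col1a1, Pdgfra, Scx, Epyc, Vcan, Krt5 and Krt14) fall outside it and were added with their values known. The alternatives were DESeq2's size factors, library totals without TMM factors (added after seeing the data), no filter, at least 10 counts in every library, a fit of all 9 libraries, a replicate block, and each library left out (for the lists and ratios, added after seeing the data). Counting intervals and floors cover counting error only. The result of 1 list of cell type markers is not reported here.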

Additional observations from a re-analysis of the deposited data

How the results depend on the processing

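Of 390 values of the members' log2 fold changes under the alternatives, 352 kept their direction and their side of the threshold, 8 kept the direction and passed it, and 30 changed sign. With no filter on low counts, edgeR called 1 of 10 members in each comparison (Kera, Kera and Fmod). Over all genes it then called 354 of 28821, 740 of 28995 and 132 of 28282 tested. DESeq2 called 1 of 10 members, Kera, between the ages and 1 of 10, Kera, for the treatment. Over all genes it called 265 of 18738 and 357 of 19436. At least 10 counts in every library left 3 of 13724 and 1 of 13808 genes called. That filter removes genes that are absent from a group before the test, among them Mobp, Snap25 and Apoa1, which were called above. The fit of all 9 libraries called 63 and 71 of 16124. The cause of the other differences was not tested. Without TMM factors, Podn turned to 0.089 for the treatment and Omd to 0.039 in old rMETRNL against young PBS.

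With the replicate block in edgeR, 1 of 10 members (Kera, adjusted p = 0.0386) and 65 of 15682 genes tested were called for the treatment. Podn (-0.037) and Dcn (-0.038) changed sign between the ages, Bgn (-0.055) for the treatment and Omd (0.18) in old rMETRNL against young PBS. The labels give only shared numbers. Deviations of same-numbered libraries correlated at 0.13 and 0.48, at -0.40 and -0.054, and from -0.24 to 0.0076. The sign was not the same in every comparison. With 2 or 3 such correlations per comparison, these values cannot decide whether the numbers pair the libraries.

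With each library left out in turn, 2 to 401 genes were called between the ages, 3 to 1560 for the treatment and 0 to 1 in old rMETRNL against young PBS, and 0 to 2 members for the treatment. Between the ages and for the treatment the highest counts, of 15884 and 15981 genes tested, came without old PBS 3. Values that changed sign between the ages were Bgn, from -0.61 to 0.012, Dcn, from -0.12 to 0.29, and Omd, from -0.73 to 0.52. For the treatment they were Prelp, from -0.13 to 0.22, Fmod, from -0.098 to 0.63, Bgn, from -0.025 to 0.56, Podn, from -0.079 to 0.035, Dcn, from -0.054 to 0.35, and Omd, from -0.041 to 0.71. In old rMETRNL against young PBS they were Bgn, from -0.23 to 0.19, Podn, from -0.0059 to 0.20, Kera, from -0.81 to 0.018, Aspn, from -0.18 to 0.13, Omd, from -0.31 to 0.80, and Ogn, from -0.19 to 0.090. Omd had 22 to 77 counts a library, so its counting error is the widest of the members.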
